A study of Mus musculus with 8 samples.

Results

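Amino acid transporters of the plasma membrane and lysosome were examined in whole liver of mice that lack mitofusin 2 in POMC neurons. The genes were those whose platform symbol begins with Slc1a, Slc3a, Slc6a, Slc7a, Slc36a, Slc38a or Slc43a, each read from the brightest of its probe sets, averaged over the 8 arrays. This gave 63 of the 18193 genes that had a probe set with a single symbol. Of the symbols, 3 (Slc7a6os, Slc36a1os and Slc6a19os) belong to opposite-strand genes and encode no transporter, which leaves 60 transporter or subunit genes. Of these, 37 were bright enough to be tested, among 11986 tested genes in all. The Slc6a prefix also takes in neurotransmitter, taurine, betaine and creatine carriers.

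Liver RNA was measured on Affymetrix expression arrays in 5 POMCMfn2KO mice and 3 controls labelled wild type, 1 array per mouse. POMCMfn2KO denotes loss of Mfn2, a mitochondrial fusion protein, from the hypothalamic neurons that make proopiomelanocortin. All mice were 6 weeks old, of a mixed C57Bl/6J, FVB/N and 129 background, fed chow freely and kept in 12 h of light and 12 h of dark. The title of the series concerns hepatic gluconeogenesis, and the comparison asks which liver genes differ when these neurons lose Mfn2. The labels used here name no Cre line, sex, collection time or batch. Because the deletion was placed in neurons, liver Mfn2 does not check the labels. Its level averaged 9.61 ± 0.24 in POMCMfn2KO liver and 9.88 ± 0.08 in control liver (SD, n = 5 and n = 3, limma adjusted p = 0.169).

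All levels are log2 values, so a difference of 1 is a change of 2-fold, and levels of different probe sets are not set against each other. Changes are POMCMfn2KO minus control, tested with limma, and "rose" and "fell" are used for genes with a Benjamini-Hochberg adjusted p under 0.05 over all tested genes. The hepatocyte gene Alb lay between 15.24 and 15.27 in POMCMfn2KO liver and between 15.24 and 15.28 in control liver. Of 9 tested hepatocyte markers, 2 (Cps1 and Pck1) rose and none fell (22.2% called, where 18% of all tested genes were). The median difference was 0.12, and the log2 of the summed level was 17.60 to 17.72 in POMCMfn2KO and 17.59 to 17.61 in control liver. Array medians lay between 5.79 and 5.81. POMCMfn2KO mice 2 and 3 stood apart in pancreatic transcripts. Of 19 pancreatic acinar markers, 14 had a probe set and 12 were tested, with none called and a median difference of 1.82. Of the 14, 8 averaged below the brightness filter of 5.80 in control liver and 1 in POMCMfn2KO liver. Some were thus tested only through the POMCMfn2KO livers, and the lack of calls is not read as a lack of difference. The log2 of the summed level of the 14 was 10.60, 14.49, 14.63, 11.08 and 10.46 in POMCMfn2KO mice 1 to 5, against 10.44 to 10.47 in the controls.

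Liver takes up amino acids from portal blood for gluconeogenesis, urea and protein synthesis, and the carriers differ in substrate and driving ion. Sodium-coupled Slc38 and Slc1 carriers concentrate neutral and acidic amino acids in the cell, Slc7 light chains exchange amino acids once bound to an Slc3 heavy chain, and Slc36 carriers move small neutral amino acids with protons. Hepatocytes around the central vein take up glutamate and ammonia and form glutamine, while periportal hepatocytes break glutamine down.

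Of the 37 tested genes, 10 changed. Slc38a2 and Slc6a17 rose (5.41%, where 7.02% of all tested genes rose), and Slc3a1, Slc1a2, Slc36a1, Slc1a4, Slc38a6, Slc36a4, Slc38a10 and Slc38a3 fell (21.6%, where 10.9% of all tested genes fell). The called share was 27% against a background of 18%. All 5 POMCMfn2KO livers lay above all 3 controls for 2 of the 37 genes (background 12%) and below them for 8 (background 16.5%). The median difference was −0.05 over the tested transporters and −0.02 over all tested genes. A further 5 genes had an unadjusted p under 0.05 without passing the adjusted test, making 15 in all (40.5%), where 33.1% of all tested genes did. As in 80.0% of all tested genes, the SD was larger among POMCMfn2KO than among control livers in 29 of the 37 transporters, a share near that of the arrays as a whole. Without control 1, 2 or 3, the transporters called numbered 3, 4 and 4 (8.11%, 10.8% and 10.8%, background 6.85%, 6.84% and 7.2%). Without POMCMfn2KO mouse 1 they numbered 12 (32.4%, background 23%). The share was 13.3% with no filter on dim genes (background 11.5%) and 32.3% with a stricter filter (background 21%). It was 21.2% with the mean of all probe sets (background 17.9%) and 21.9% with the most variable probe set (background 20.4%).

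Upstream sequences are shown for the gene with the largest fall (Slc3a1), the larger of the rises (Slc38a2), the carrier of the pericentral zone (Slc1a2) and the called gene whose window holds the letters of a cAMP response element (Slc38a6). Each is the 250 bases before an annotated start on the gene's own strand, from RefSeq on build GRCm38.p6. For Slc1a2 this start lies inside the gene, which spans chr2:102658239-102790784, so the sequence before the gene's first base was not searched. The Slc38a6 start also lies inside its gene, which begins at chr12:73286739, so the printed stretch crosses the gene's first base. Of the called genes not printed, Slc36a1 (gene from chr11:55204322) and Slc6a17 also have an annotated start inside the gene. Motif positions are counted from the annotated start. Capitals mark a motif match and the other letters carry no mark. The stretches are chr17:85028097-85028346 (plus strand) for Slc3a1, chr15:96699729-96699978 (minus strand) for Slc38a2, chr2:102706188-102706437 (plus strand) for Slc1a2 and chr12:73286598-73286847 (plus strand) for Slc38a6.
Slc3a1: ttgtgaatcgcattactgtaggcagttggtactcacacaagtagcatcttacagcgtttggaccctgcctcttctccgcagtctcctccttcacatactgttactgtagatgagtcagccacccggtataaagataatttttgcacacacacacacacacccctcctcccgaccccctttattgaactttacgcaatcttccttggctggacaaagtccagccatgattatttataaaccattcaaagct
Slc38a2: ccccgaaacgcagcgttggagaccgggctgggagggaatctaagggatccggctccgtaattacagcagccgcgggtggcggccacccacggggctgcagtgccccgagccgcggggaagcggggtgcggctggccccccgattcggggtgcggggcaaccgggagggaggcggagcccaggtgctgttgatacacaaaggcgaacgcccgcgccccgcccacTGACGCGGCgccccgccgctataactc
Slc1a2: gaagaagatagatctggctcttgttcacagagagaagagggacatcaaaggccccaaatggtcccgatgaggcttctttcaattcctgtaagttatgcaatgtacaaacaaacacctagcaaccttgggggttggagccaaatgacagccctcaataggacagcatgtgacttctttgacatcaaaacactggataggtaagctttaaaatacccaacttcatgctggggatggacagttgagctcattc
Slc38a6: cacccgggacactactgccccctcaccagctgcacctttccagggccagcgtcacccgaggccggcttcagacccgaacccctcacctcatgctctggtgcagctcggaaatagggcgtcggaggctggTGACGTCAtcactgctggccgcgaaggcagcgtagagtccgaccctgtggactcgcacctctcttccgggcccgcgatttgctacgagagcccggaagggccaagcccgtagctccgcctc
The motifs searched, on both strands of 250 bases before and 50 after the start, were the core of the amino acid response element bound by ATF4 (TGATGNAA), the cAMP response element (TGACGTCA) and the core of the antioxidant response element (TGACNNNGC). No pair of matches overlapped in the promoters listed here. They occurred in 3.97%, 1.79% and 12.4% of 32851 promoters. Of the 10 called genes, 9 had an entry, Slc6a17 with 2 starts, giving 10 promoters. The amino acid response core matched in 1 of them, Slc1a4, as TTGCATCA on the gene's strand at positions −4 to 4 around the start. The cAMP element matched in 1, Slc38a6, at −121 to −114. The antioxidant core matched in 2, Slc38a2 at −27 to −19 (TGACGCGGC) and Slc36a1 at 2 to 10, beyond the printed stretch. No match was found in the windows of Slc3a1, Slc1a2 (internal start only), Slc36a4, Slc38a10 or Slc6a17. In human and rat cells the studied amino acid response element of SLC38A2 lies in an intron, which these windows do not cover. GC content of the printed stretches was 45.6% for Slc3a1, 72.0% for Slc38a2, 44.8% for Slc1a2 and 66.4% for Slc38a6.

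**Figure D1:**
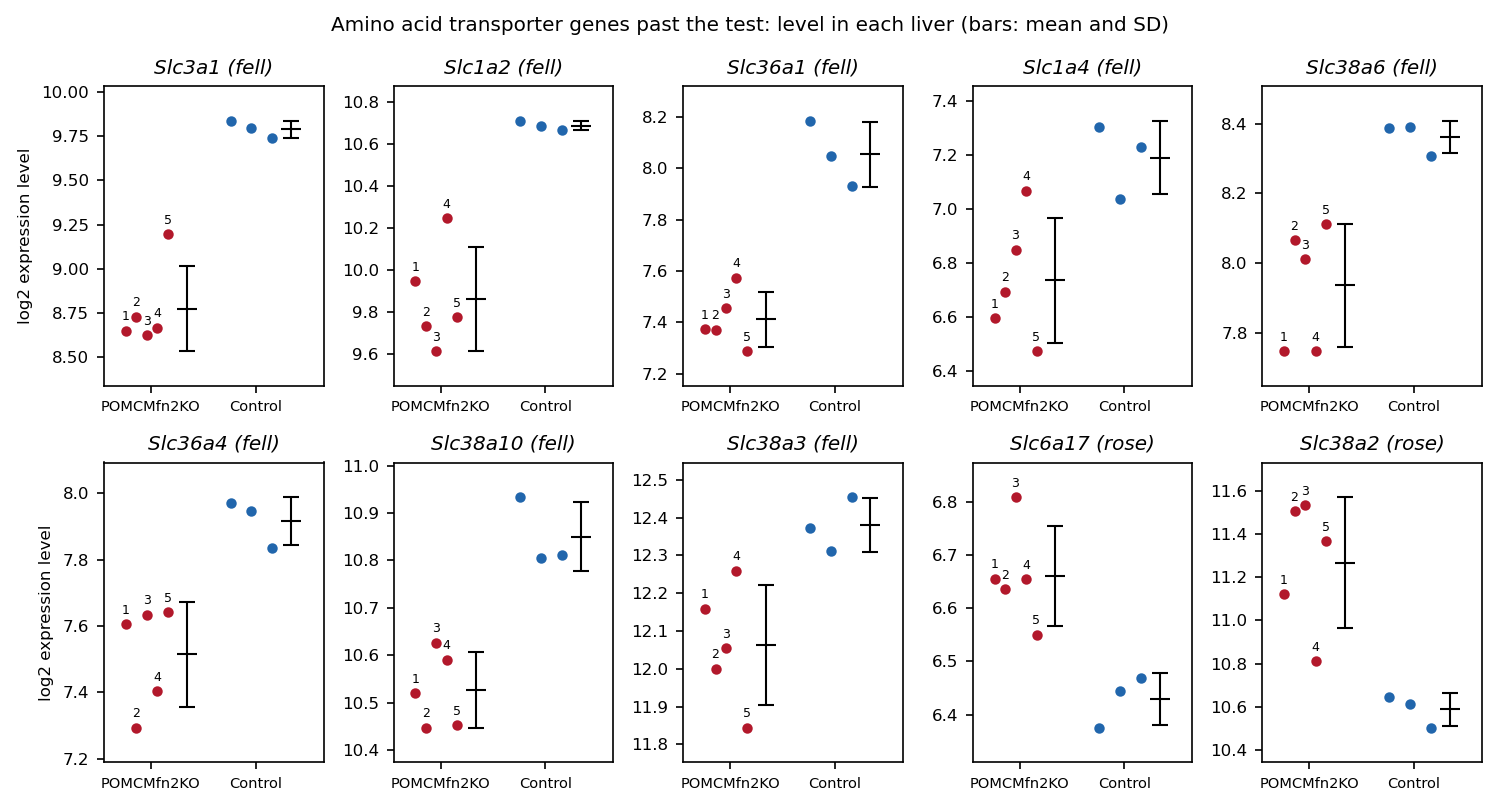
The 10 transporter genes past the limma test, with the log2 level of each liver on the vertical axis (a separate range for each gene), POMCMfn2KO in red with mouse numbers and Control in blue, and bars for mean and SD (n = 5 and n = 3). The groups are apart for 9 genes and overlap for Slc1a4, where POMCMfn2KO mouse 4 at 7.07 lies above a control at 7.04.

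The largest change among the transporters was in Slc3a1, the heavy chain rBAT. In kidney and gut this glycoprotein pairs with the light chain Slc7a9 to carry cystine and dibasic amino acids, and loss of either causes cystinuria. Slc3a1 was 8.65, 8.73, 8.62, 8.67 and 9.20 in POMCMfn2KO livers, against 9.84, 9.80 and 9.74 in control livers. Mice 1 to 4 lay close together, mouse 5 was higher, and all were below every control. Slc3a1 fell by 1.02 (SE 0.13), a control level 2.02-fold that of POMCMfn2KO (adjusted p = 0.00156). It kept this call under all 19 other settings and left-out arrays. In whole liver, fewer cells of a type and less RNA per cell cannot be told apart, here and in every result that follows. Of 8 kidney and intestine markers, the kidney genes Umod and Slc34a1 and the gut gene Lct were below the brightness filter, and the log2 of the list's summed level was 11.67 to 12.22 in POMCMfn2KO and 12.23 to 12.38 in control liver. Within that list Fabp2, which liver also expresses, was 11.48 to 12.08 in POMCMfn2KO and 12.10 to 12.25 in control liver (adjusted p = 0.108). The partner Slc7a9 was too dim to be tested.

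The other heavy chain did not pass the test. Slc3a2, or 4F2hc, pairs with most Slc7 light chains and with them forms the L, y+L and xc− systems. It was 8.99, 9.19, 9.17, 8.96 and 9.30 in POMCMfn2KO livers, against 9.16, 9.15 and 9.12 in control livers. The POMCMfn2KO values lay on both sides of the controls, with a difference of −0.02 (95% interval −0.22 to 0.17, limma adjusted p = 0.889). Whether the 2 heavy chains differ in their response was not tested.

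None of the 6 tested Slc7a genes passed the test. Slc7a5 (LAT1), an exchanger of large neutral amino acids, was 7.19, 6.79, 7.16, 6.67 and 6.99 in POMCMfn2KO livers and 6.86, 6.83 and 6.81 in control livers, with a difference of 0.13 (95% interval −0.14 to 0.40, limma adjusted p = 0.502). The POMCMfn2KO livers of Slc7a5 lay on both sides of a narrow control group. Slc7a7 (y+LAT1), which releases cationic amino acids from cells, differed by 0.01 (limma adjusted p = 0.911), and its sign turned with other probe sets (−0.09 with the mean of all, −0.20 with the most variable). Slc7a4, a relative of the cationic carriers whose transport is not established, differed by 0.21 (adjusted p = 0.184), and Slc7a13, an acidic amino acid carrier of kidney, by 0.04 (0.767). A further 9 were too dim to test, among them the exchangers Slc7a8 (LAT2) and Slc7a6, the cystine and glutamate exchanger Slc7a11 (xCT) and the Slc3a1 partner Slc7a9.

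The cationic carriers bring in arginine, lysine and ornithine, and Slc7a2 (CAT2) is the main one of hepatocytes. Its probe sets disagreed. The brightest, used here, was 12.83, 12.38, 12.45, 12.32 and 12.16 in POMCMfn2KO livers, against 12.46, 12.48 and 12.49 in control livers. Mouse 1 lay above the controls and the others below, for a difference of −0.05 (SE 0.13, limma adjusted p = 0.833). A second probe set gave 10.87, 8.96, 9.34, 8.61 and 9.46 in POMCMfn2KO livers, against 8.32, 8.38 and 8.31 in control livers. Another gave 9.41, 7.77, 8.26, 7.98 and 8.17 in POMCMfn2KO livers, against 7.56, 7.64 and 7.59 in control livers. On both, every POMCMfn2KO liver lay above every control and mouse 1 was by far the highest. The differences were 1.11 (SE 0.41) and 0.72 (SE 0.31). With each of 22519 bright probe sets tested on its own, a setting added after the data were seen, limma adjusted p was 0.101 and 0.143, so neither passed. The remaining bright one differed by −0.18 (adjusted p = 0.658). Slc7a1 (CAT1), the widely expressed cationic carrier, was 5.98 to 6.29 in POMCMfn2KO and 6.13 to 6.31 in control liver, a difference of −0.05 (adjusted p = 0.689).

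**Figure D2:**
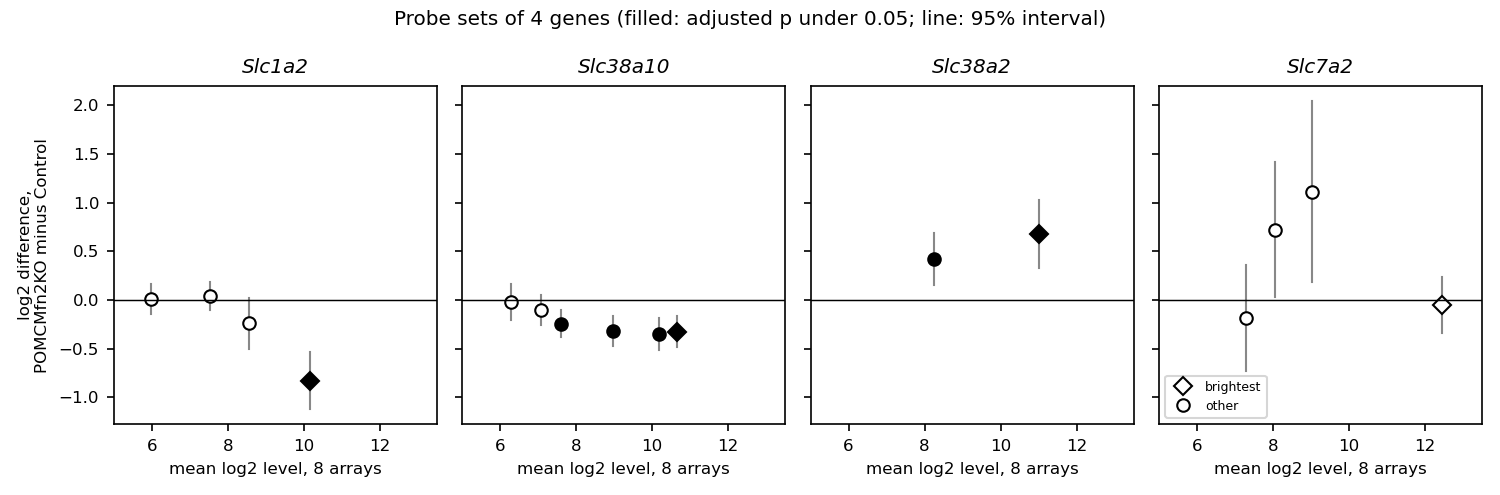
Log2 difference (POMCMfn2KO minus Control, vertical axis, line for the 95% interval) of each bright probe set of 4 genes against its mean log2 level over 8 arrays (horizontal axis), diamonds for the brightest. Filled marks have an adjusted p under 0.05 with each probe set tested on its own: 1 of 4 for Slc1a2, 4 of 6 for Slc38a10, 2 of 2 for Slc38a2 and 0 of 4 for Slc7a2, whose probe sets range between −0.18 and 1.11.

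Among the glutamate carriers, Slc1a2 fell. Slc1a2 (GLT-1, EAAT2) takes up glutamate with sodium, in brain astrocytes and in the hepatocytes next to the central vein. It was 9.95, 9.73, 9.61, 10.25 and 9.77 in POMCMfn2KO livers, against 10.71, 10.68 and 10.67 in control livers. Every POMCMfn2KO liver was lower, mouse 4 the least so, while the controls spanned a very narrow range. Slc1a2 fell by 0.83 (SE 0.13, limma adjusted p = 0.00393). The call rests on the brightest of its probe sets: the next differed by −0.24 (adjusted p = 0.201 among probe sets) and the remaining bright ones by 0.04 and 0.01. The mean of all Slc1a2 probe sets differed by −0.23 (adjusted p = 0.0916). Of the neuronal and glial markers, 4 of the 7 with a probe set were tested and 0 were called, with a log2 summed level of 8.92 to 9.48 in POMCMfn2KO and 9.26 to 9.40 in control liver.

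Slc1a2 belongs to a list of 8 pericentral genes, chosen with earlier results of these data known. Of these, 3 fell, Slc1a2 itself among them, and 1 rose (50% called, where 18% of all tested genes were called and 10.9% fell). Glul, the glutamine synthetase of the same hepatocytes, was 12.89, 12.94, 12.85, 13.15 and 12.92 in POMCMfn2KO livers, against 13.42, 13.46 and 13.40 in control livers. Rhbg, their ammonia channel, was 8.12, 7.80, 8.15, 8.21 and 7.65 in POMCMfn2KO livers, against 8.77, 8.79 and 8.99 in control livers. For both, all POMCMfn2KO livers lay below all controls, and Glul fell by 0.48 (limma adjusted p = 0.00467) and Rhbg fell by 0.87 (limma adjusted p = 0.00388). Not every gene of the zone was lower. Cyp1a2, a cytochrome P450, rose by 0.45, while Cyp2e1, another, differed by −0.01, the Wnt target Axin2 by 0.03 and the Wnt receptor gene Lgr5 by −0.12, none of these last 3 called. Oat, ornithine aminotransferase, was 13.45, 12.51, 12.73, 13.80 and 12.09 in POMCMfn2KO livers and 13.76, 13.81 and 13.79 in control livers, and its difference of −0.87 did not pass (adjusted p = 0.107). In mouse 4, Oat, Glul and Slc1a2 were all nearest to the controls. Of 7 tested periportal genes, 1 rose and none fell (14.3% called, background 18%).

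**Figure D3:**
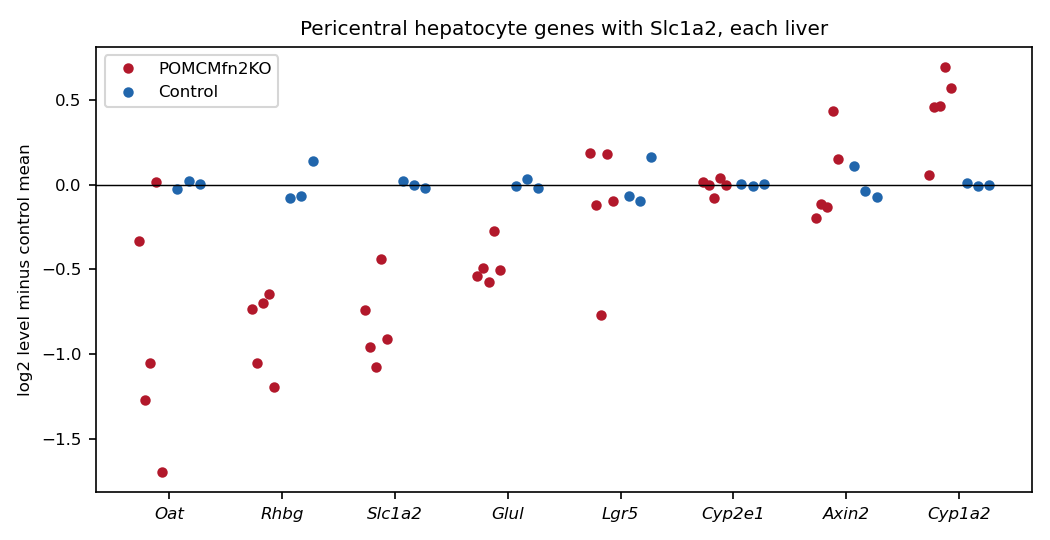
Log2 level of each liver minus the control mean of that gene (vertical axis) for the 8 genes of the pericentral list, POMCMfn2KO in red and Control in blue. Rhbg, Slc1a2 and Glul lie below the controls in all 5 POMCMfn2KO livers, Oat is spread between −1.70 and 0.01, and Cyp1a2 lies above.

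The remaining Slc1 carriers are the neutral exchangers and glutamate carriers of other cells. Slc1a4 (ASCT1), an exchanger of alanine, serine and cysteine, was 6.60, 6.69, 6.85, 7.07 and 6.47 in POMCMfn2KO livers, against 7.31, 7.04 and 7.23 in control livers. Mouse 4 was within the control range and the other livers of its group were below it. Slc1a4 fell by 0.46 (SE 0.13, limma adjusted p = 0.0407), and another probe set gave −0.48 (adjusted p = 0.0459 among probe sets). That probe set averaged 5.66 in POMCMfn2KO and 6.14 in control liver. Its mean over all arrays thus passed the brightness filter of 5.80 only through the control livers. The remaining Slc1a4 probe set, below the filter, gave −0.21 and was not tested. Without any single control or any single POMCMfn2KO mouse other than mouse 4, Slc1a4 missed the threshold (adjusted p 0.0541 to 0.155). Slc1a5 (ASCT2), a glutamine exchanger, was 6.37, 6.00, 6.18, 6.11 and 6.04 in POMCMfn2KO livers and 6.33, 6.44 and 6.27 in control livers. Only mouse 1 reached the control range, and the difference was −0.21 (limma adjusted p = 0.150, and 0.0299 without mouse 1). The other Slc1a5 probe set, below the brightness filter, gave 0.18. With the mean of all probe sets the Slc1a5 difference was −0.01 (limma adjusted p = 0.941). Slc1a3 (GLAST) differed by 0.06 (adjusted p = 0.678) and Slc1a7 (EAAT5) by 0.04 (adjusted p = 0.747).

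The Slc38 family, sodium-coupled carriers of glutamine, alanine and other neutral amino acids, had changes in both directions: of 8 tested genes, 1 rose and 3 fell. Slc38a2 (SNAT2), a system A carrier of alanine and other small neutral amino acids that cells induce when amino acids are short, was 11.12, 11.51, 11.53, 10.81 and 11.37 in POMCMfn2KO livers, against 10.64, 10.62 and 10.50 in control livers. All POMCMfn2KO livers were above all controls, mouse 4 by the least. Slc38a2 rose by 0.68 (SE 0.16), 1.60-fold (limma adjusted p = 0.0183), and its second bright probe set by 0.42 (adjusted p = 0.0427 among probe sets). The highest values were in mice 2 and 3, which carried the pancreatic transcripts, and in mouse 5, whose pancreatic sum was that of the controls. Without mice 2 and 3 the difference was 0.51 (adjusted p = 0.0803), and without control 1, 2 or 3 adjusted p was 0.0646, 0.0671 and 0.0799.

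Slc38a3 (SNAT3), the system N carrier by which hepatocytes take up and release glutamine, moved the other way. It was 12.16, 12.00, 12.06, 12.26 and 11.84 in POMCMfn2KO livers, against 12.37, 12.31 and 12.45 in control livers. The groups did not overlap, but mouse 4 came close to the lowest control. Slc38a3 fell by 0.32 (SE 0.09, limma adjusted p = 0.0470). With each probe set tested on its own, the brightest missed the threshold (adjusted p = 0.0534) and the second gave −0.29 (adjusted p = 0.212). Slc38a3 missed the threshold without any single control or without mouse 2, 3 or 5 (adjusted p 0.0592 to 0.167), and under 6 of 19 alternatives it was called.

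Slc38a4 (SNAT4), a system A carrier of liver, was 13.16, 12.91, 12.92, 13.07 and 12.90 in POMCMfn2KO livers, against 13.18, 13.19 and 13.13 in control livers. Mouse 1 lay among the controls and the other POMCMfn2KO livers just below them. The difference of −0.17 (95% interval −0.35 to −0.0026) did not pass (limma adjusted p = 0.145, and 0.0422 without mouse 1), and a second probe set gave 0.05. Slc38a1 (SNAT1), the system A carrier best known from brain, was 6.84 to 7.12 in POMCMfn2KO and 6.93 to 7.13 in control liver, a difference of −0.06 (adjusted p = 0.654).

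Less studied genes of the Slc38 family also fell. Slc38a10, a carrier of intracellular membranes reported to move glutamine and related amino acids, was 10.52, 10.45, 10.63, 10.59 and 10.45 in POMCMfn2KO livers, against 10.93, 10.81 and 10.81 in control livers. The groups were apart with little spread in either. Slc38a10 fell by 0.32 (SE 0.07, limma adjusted p = 0.0134). The next 3 probe sets in brightness gave −0.35, −0.31 and −0.24, each called (adjusted p 0.0144 to 0.0308 among probe sets). The remaining bright ones gave −0.11 and −0.02 (adjusted p = 0.330 and 0.923 among probe sets). The call of Slc38a10 was lost without control 1 (adjusted p = 0.0731), without POMCMfn2KO mice 2 and 3 (0.0598) and with replicate numbers as a block (0.0537). Slc38a6, whose substrates are less settled, was 7.75, 8.07, 8.01, 7.75 and 8.11 in POMCMfn2KO livers, against 8.39, 8.39 and 8.31 in control livers. Mice 1 and 4 formed the low end and all 5 were below the controls. Slc38a6 fell by 0.43 (SE 0.10, limma adjusted p = 0.0199). This call was lost without control 1, 2 or 3 (adjusted p 0.0826, 0.0834 and 0.0610) and without POMCMfn2KO mice 2 and 3 (0.0539).

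The proton-coupled Slc36 carriers export small neutral amino acids from lysosomes or take them up at the cell surface. Slc36a1 (PAT1), found on lysosomes and on gut epithelium, was 7.37, 7.37, 7.45, 7.57 and 7.29 in POMCMfn2KO livers, against 8.19, 8.05 and 7.93 in control livers. The 2 groups were well apart, and the POMCMfn2KO livers close together. Slc36a1 fell by 0.64 (SE 0.08), a control level 1.56-fold that of POMCMfn2KO (limma adjusted p = 0.00192), and kept its call under all 19 alternatives. Slc36a4 (PAT4), whose human protein carries proline and tryptophan in frog oocytes, was 7.60, 7.29, 7.63, 7.40 and 7.64 in POMCMfn2KO livers, against 7.97, 7.95 and 7.84 in control livers. The groups did not overlap. Slc36a4 fell by 0.40 (SE 0.09, limma adjusted p = 0.0200). Its call was lost without control 1, 2 or 3 (adjusted p 0.0886, 0.0846 and 0.0533). It was also lost without POMCMfn2KO mice 2 and 3 (0.0637) and with replicate numbers as a block (0.05625). Slc36a2, a proline and glycine carrier of kidney, differed by 0.04 (adjusted p = 0.795).

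The Slc38 members of the lysosome did not pass the test. Slc38a9, the arginine sensor that links lysosomal amino acids to mTORC1, was 6.88, 7.05, 6.74, 7.15 and 6.94 in POMCMfn2KO livers and 7.19, 7.17 and 6.98 in control livers, a difference of −0.16 (95% interval −0.39 to 0.06, limma adjusted p = 0.283). Slc38a7, a lysosomal glutamine exporter, was 7.35, 7.60, 7.38, 7.51 and 7.57 in POMCMfn2KO livers and 7.65, 7.62 and 7.54 in control livers, a difference of −0.12 (95% interval −0.29 to 0.05, limma adjusted p = 0.312). Both overlapped between the groups and had most POMCMfn2KO livers below the control mean.

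Of the 10 tested Slc6a genes, Slc6a17 was the single one called. Slc6a17 (NTT4), a vesicular carrier of neutral amino acids in neurons, was 6.66, 6.64, 6.81, 6.65 and 6.55 in POMCMfn2KO livers, against 6.38, 6.45 and 6.47 in control livers. The groups did not overlap and the step between them was small. Slc6a17 rose by 0.23 (SE 0.07, limma adjusted p = 0.0493), its other probe sets gave 0.05 and −0.00, and it was called under 3 of 19 alternatives. Leaving out any single array except that of mouse 5 ended the call (adjusted p 0.0516 to 0.178). Slc6a16, an orphan carrier, stood just outside the threshold: it was 5.60, 5.75, 5.82, 5.85 and 5.75 in POMCMfn2KO livers and 6.04, 5.93 and 5.95 in control livers, a difference of −0.22 (limma adjusted p = 0.0640). Its POMCMfn2KO livers were all below the controls, and its levels lie around the brightness filter of 5.80.

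The Slc6 carriers of osmolytes and of one-carbon and creatine metabolism showed wide spread. Slc6a6 (TauT), the taurine carrier, was 9.56, 10.39, 10.17, 9.63 and 10.54 in POMCMfn2KO livers, against 10.18, 10.10 and 9.96 in control livers. Mice 1 and 4 lay below the controls and mice 2 and 5 above, for a difference of −0.02 (95% interval −0.53 to 0.48, limma adjusted p = 0.955). Slc6a13 (GAT2), the GABA and taurine carrier of periportal hepatocytes, was 10.61, 11.21, 11.22, 10.99 and 11.43 in POMCMfn2KO livers, against 10.70, 10.75 and 10.78 in control livers. Mouse 1 lay below the controls and the other POMCMfn2KO livers above. The difference was 0.35 (SE 0.16, limma adjusted p = 0.159), and 0.47 without mouse 1 (adjusted p = 0.0123). Slc6a12 (BGT1), the betaine carrier, differed by 0.13 (adjusted p = 0.468).

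Slc6a9 (GlyT1), the glycine carrier, was 9.23, 8.96, 8.64, 8.63 and 8.86 in POMCMfn2KO livers, against 8.63, 8.50 and 8.53 in control livers. Mouse 4 lay beside the highest control and the other POMCMfn2KO livers above it, for a difference of 0.31 (limma adjusted p = 0.132), while a second probe set gave −0.05. Slc6a8, the creatine carrier, was 6.98, 6.67, 6.49, 6.42 and 7.01 in POMCMfn2KO livers, against 7.32, 7.10 and 6.97 in control livers. Mice 1 and 5 reached the control range and the others did not. Its difference of −0.41 did not pass (limma adjusted p = 0.0903, and 0.0458 without mouse 1), and a second probe set gave 0.12. Gamt, which makes creatine, averaged 9.58 ± 0.66 in POMCMfn2KO and 10.62 ± 0.00 in control liver (SD, n = 5 and n = 3), a difference of −1.04 that also missed the threshold (adjusted p = 0.0516).

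No Slc43 gene passed the test. Slc43a1 (LAT3), a sodium-independent carrier of branched-chain amino acids, was 8.11, 6.82, 6.83, 7.24 and 6.51 in POMCMfn2KO livers, against 6.69, 6.86 and 6.89 in control livers. Mouse 1 was far above all the other livers, and the difference was 0.29 (95% interval −0.39 to 0.97, limma adjusted p = 0.555). Slc43a2 (LAT4), with the same substrates, was 8.33, 8.22, 8.25, 7.86 and 8.34 in POMCMfn2KO livers and 8.46, 8.20 and 8.53 in control livers, a difference of −0.19 (adjusted p = 0.308). Slc43a3, since identified as a purine base carrier, was 8.25, 8.26, 8.20, 8.25 and 8.56 in POMCMfn2KO livers and 8.36, 7.98 and 8.07 in control livers, a difference of 0.16 (adjusted p = 0.333). In both, a single POMCMfn2KO liver stood off from the other four.

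**Figure D4:**
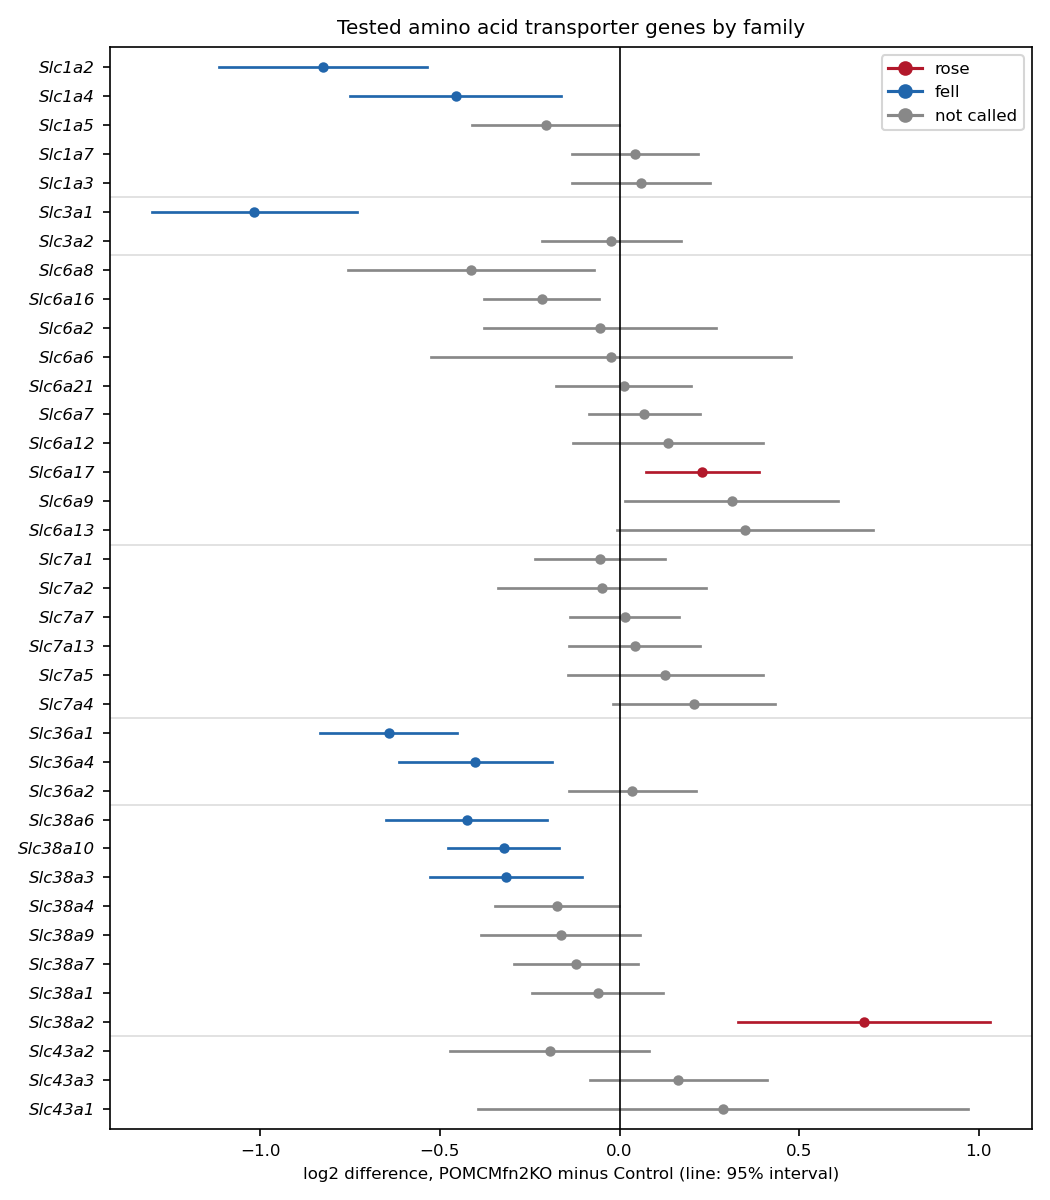
Log2 difference (POMCMfn2KO minus Control, horizontal axis) with its 95% interval for the 37 tested transporter genes, grouped by family from Slc1a at the top to Slc43a at the bottom. The 2 that rose are red, the 8 that fell are blue and the 27 not called are grey; the range is −1.02 (Slc3a1) to 0.68 (Slc38a2).

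By family, 2 of 5 tested genes fell in Slc1a, 1 of 2 in Slc3a, 2 of 3 in Slc36a and 3 of 8 in Slc38a, where 10.9% of all tested genes fell. No gene fell among the 10 of Slc6a, the 6 of Slc7a or the 3 of Slc43a. Such small families give shares of low precision, and the differences between families were not tested. The tested genes not named above were the noradrenaline carrier Slc6a2, the proline carrier Slc6a7 and Slc6a21, with differences of −0.06, 0.07 and 0.01, none called. The tested opposite-strand genes Slc7a6os and Slc36a1os differed by 0.08 and −0.02. The 23 untested transporter genes had means between 3.44 (Slc6a20a) and 5.68 (Slc7a15) and reached at most 5.90 on any array. They include the renal and intestinal carriers Slc6a19 and Slc6a20a, the glutamate carrier Slc1a1, Slc7a10 and the system N carrier Slc38a5. Whether they differ could not be seen at this brightness.

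POMCMfn2KO mouse 4 was nearest to the controls for 5 of the 10 called genes: Slc1a2, Slc1a4, Slc36a1, Slc38a2 and Slc38a3. Mouse 5 was nearest for Slc3a1, Slc38a6, Slc36a4 and Slc6a17, and mouse 3 for Slc38a10. Mouse 4 also had an erythroid marker sum of 10.46 on the log2 scale, against 9.04 to 9.11 in control livers; its part in these values was not tested. The neutrophil sum was 8.31 to 8.48 in POMCMfn2KO livers and 8.97 to 9.05 in control livers, with 1 of 4 tested markers called, S100a9, which fell. The adipocyte sum was 9.19 to 9.49 in POMCMfn2KO and 8.90 to 9.09 in control livers, and 1 of 2 tested markers, Fabp4, rose. Of 9 tested endothelial markers, Stab2 and Eng rose (median 0.31), with sums of 12.10 to 12.49 in POMCMfn2KO and 11.94 to 12.20 in control livers. Of 10 Kupffer cell markers, Timd4 fell (median −0.29), with sums of 12.88 to 13.62 in POMCMfn2KO and 13.41 to 13.71 in control livers. The called shares were 25% (neutrophil), 50% (adipocyte), 22.2% (endothelial) and 10% (Kupffer), where 18% of all tested genes were called. Lists this short give shares of low precision. The part of these cell types in the transporter values was not tested.

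**Figure D5:**
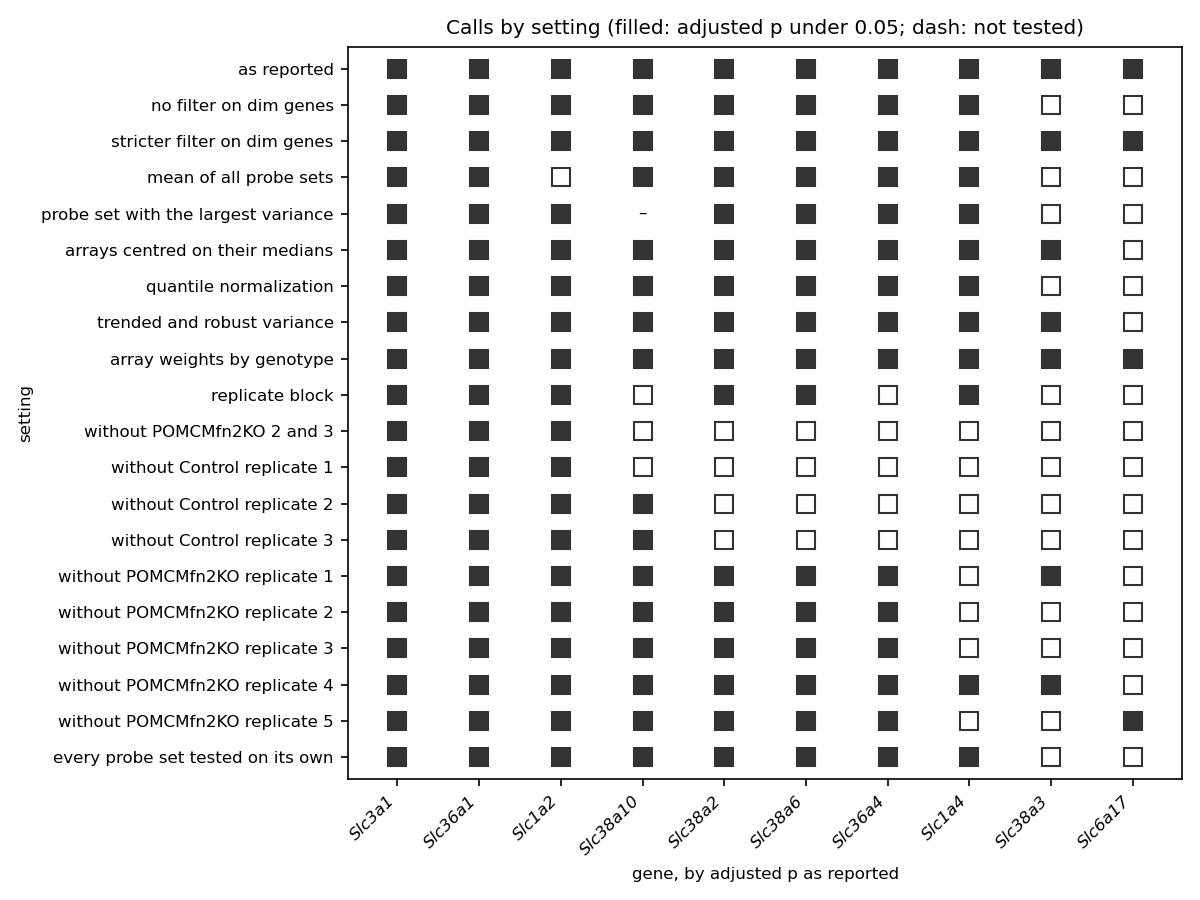
Calls of the 10 genes (horizontal axis, by adjusted p) under the reported setting and 19 others (vertical axis); filled squares have an adjusted p under 0.05, open squares do not, and the dash was not tested. Slc3a1 and Slc36a1 are filled in every row, Slc1a2 in all but 1, and Slc6a17 in the reported row and 3 others.

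Genes that work beside these carriers were read from 4 lists. Of 16 tested carriers of other families, 1 rose and 3 fell (25% called, background 18%). Slc15a2 (PEPT2), a proton-coupled peptide carrier, was 7.40, 8.12, 8.23, 7.16 and 7.92 in POMCMfn2KO livers, against 6.44, 6.18 and 6.57 in control livers. All POMCMfn2KO livers were higher, and Slc15a2 rose by 1.37 (SE 0.24, limma adjusted p = 0.00646). Slc66a1 (PQLC2), which exports cationic amino acids from lysosomes, fell by 0.43 (limma adjusted p = 0.00578), and Slc15a3, a lysosomal peptide and histidine carrier, fell by 0.63 (limma adjusted p = 0.0124). Slc47a1, which fell by 0.91 (limma adjusted p = 0.0127), exports organic cations and is no amino acid carrier. Without control 1 or 3, a single gene of this list fell.

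Of 61 tested genes of amino acid metabolism, 4 rose and 2 fell, with a median difference of −0.02. The called share was 9.84%, below the 18% of all tested genes (7.02% rose and 10.9% fell). Besides Glul, Haao, an enzyme of tryptophan breakdown, fell by 0.53 (limma adjusted p = 0.0213). Aadat, an aminotransferase of lysine and kynurenine, was 12.03, 11.87, 12.07, 11.83 and 11.47 in POMCMfn2KO livers, against 11.18, 11.14 and 10.97 in control livers, and rose by 0.76 (limma adjusted p = 0.00631). The groups did not overlap, mouse 5 being the nearest. Cps1, which commits ammonia to urea, rose by 0.31 (limma adjusted p = 0.0264). Cbs, of homocysteine metabolism, and Odc1, which makes putrescine, also rose, by 0.27 and 0.42. Without any 1 control, 1 gene rose and 1 fell. Without mouse 2 or 3, 2 and 1 genes rose, and without mouse 1 or 4, 6 and 9 fell.

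Of 33 tested genes of the ATF4 response, the programme that cells start when amino acids run short or the endoplasmic reticulum is stressed, 8 rose and 1 fell (27.3% called), with a median of 0.08. Over all tested genes 7.02% rose, 10.9% fell and 18% were called. Fgf21, a hormone secreted by liver, was 8.92, 8.85, 9.02, 9.40 and 8.82 in POMCMfn2KO livers, against 7.79, 7.70 and 7.65 in control livers. It was more than 1 unit higher in every POMCMfn2KO liver than in any control and rose by 1.29 (limma adjusted p = 0.000478). The transcription factor gene Atf5 rose by 0.68 (limma adjusted p = 0.00163), Gars, a glycyl-tRNA synthetase, by 0.38 (0.00471) and Aldh18a1, of proline synthesis, by 0.40 (0.0135). Atf4 itself differed by 0.22 (adjusted p = 0.0609). The member that fell was Vldlr, a lipoprotein receptor, which fell by 1.13 (limma adjusted p = 0.0175). Asns, asparagine synthetase, was 7.50, 7.35, 7.69, 9.44 and 7.54 in POMCMfn2KO livers, against 8.34, 8.42 and 8.29 in control livers, with 4 livers below the controls and mouse 4 above (adjusted p = 0.4996). Without control 1, 2 or 3, 3, 4 and 3 genes of the list rose, and without mouse 2, 5 rose. Vldlr lost its call without control 1 or 2, and 3 genes fell without mouse 1 or without mouse 4.

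Of 30 tested genes of amino acid sensing by mTORC1 and GCN2, 1 rose and 3 fell (13.3% called, where 18% of all tested genes were), with a median of −0.07. The share that fell was near the 10.9% of all tested genes. Of the 5 subunits of Ragulator, a scaffold on the lysosome, Lamtor1 fell by 0.34 (limma adjusted p = 0.00767), Lamtor2 by 0.36 (0.0221) and Lamtor4 by 0.25 (0.04996, just inside the threshold). The remaining ones, Lamtor3 and Lamtor5, differed by 0.13 and −0.08 (adjusted p = 0.285 and 0.446). Lamtor1 averaged 10.99 ± 0.05 in POMCMfn2KO and 11.32 ± 0.06 in control liver (SD, n = 5 and n = 3). Sec13, a subunit of GATOR2 and of vesicle coats, rose by 0.28 (limma adjusted p = 0.0264). Without any 1 control, or without mouse 3, none rose and 1 fell. The lists overlap, Slc38a9 being in the last, and were chosen with earlier results of these data known.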

How the data were processed

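The authors deposited log2 expression levels per probe set, made with RMA from the affy package per the submitters' processing notes, with versions not given there. RNA was purified with Trizol and a column kit, per the labels. The log2 values were used as deposited. Of 45101 probe sets, 64 were controls, 34945 had 1 symbol, 932 several and 9160 none. Probe sets with 1 symbol were used, the one with the highest mean per gene. One probe set shared by Gm13872 and Slc1a2 was left out (means of 6.79 in POMCMfn2KO and 6.85 in control). Genes with a mean below 5.80, the median of non-control probe sets, were not tested (6207 of 18193). Tests used limma 3.58.1 in R 4.3.3 (no trend, not robust, 2-sided, all 8 arrays), Benjamini-Hochberg adjustment over 11986 genes and a threshold of 0.05. Precision rests on the number of arrays, since an array has no sequencing depth. On simulated data of this size, the test found 64% of 100 genes shifted by 0.5 log2 units and 91% of 100 shifted by 1. It made 10 false calls. Whether these shares hold for the measured livers was not tested. There the median SD was 0.13 in POMCMfn2KO and 0.07 in control liver, and 2152 genes were called.

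The members and lists were chosen with earlier results of these data known. Genes named were all transporters that passed, the 10 transporters with the highest mean, a fixed set of well-studied carriers, the 4 of each related list with the lowest p and, chosen after their values were seen, Slc1a7, Slc6a2, Slc6a7, Slc6a16, Slc6a21, Slc7a4, Slc7a13, Slc36a2, Slc38a5, Cbs, Odc1, Gamt, Atf4, Vldlr, Asns, Lamtor3 and Lamtor5. Marker genes are named from the marker lists. Of the related lists, 23 of 26, 66 of 75, 35 of 37 and 32 of 35 genes had a probe set. Alternatives changed the filter, probe set, scaling, variance model and array weights, blocked on the replicate number, or dropped arrays. Deviations of same-numbered arrays correlated at 0.04, 0.04 and −0.03, so the numbers were not taken to pair the mice. No 2 arrays were identical. Markers of 14 cell types were read on every array. Plots were made in Python 3.11.15 (matplotlib 3.10.9).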

Additional observations from a re-analysis of the deposited data

Results flagged for a closer look

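A set of 3 values stood off from the other four of their group by more than Dixon's critical value of 0.71 for 5 samples, among 29 named transporters; chance alone flags about 1 in 20. Slc3a1 was 9.20 in POMCMfn2KO mouse 5, against 8.73 in the next liver (gap 0.819 of the range), and still below every control; without this array the fall was 1.12 (limma adjusted p = 4.36e-05). Slc43a2 was 7.86 in mouse 4, against 8.22 in the next (0.741). Slc43a3 was 8.56 in mouse 5, against 8.26 in the next (0.829). Neither of these last genes was called.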

How the results depend on the processing

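The 29 named transporters were compared under 19 other settings, 543 comparisons in all: 467 kept direction and side of the threshold, 54 fell short of it, 6 came past it and 16 turned sign, none of these in a called gene. Slc3a1 and Slc36a1 kept their calls throughout. The number of transporters that rose was 1 (2 as reported) with no filter on dim genes, the mean of all probe sets, the probe set with the largest variance, arrays centred on their medians, quantile normalization or trended and robust variance, and 0 without POMCMfn2KO 2 and 3, where 3 fell and 640 genes were called in all. With no filter, which adds the dim genes, the median difference was −0.0061. With replicate numbers as a block, 1 transporter rose and 7 were called in all, 6 of them among the 10 reported; 8 metabolism genes fell, 5 ATF4 response genes rose and 2 fell. With array weights by genotype, 2 other carriers rose, and 8 metabolism and 5 sensing genes fell. With the largest variance, 4 metabolism genes fell, and 0 ATF4 response genes fell there and with the mean of probe sets, where Vldlr lost its call. Without POMCMfn2KO 2 and 3, 1 other carrier fell, 1 metabolism gene rose and 1 fell, 3 ATF4 response genes rose, and 0 sensing genes rose and 1 fell. The cause of these shifts was not tested.

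Leaving out single arrays, 0 to 2 transporters rose and 3 to 10 fell (3, 4 and 4 called in all without control 1, 2 and 3), their median was −0.065 to −0.0069, and 820 to 2760 of all genes were called. Other carriers that rose numbered 1 and that fell 1 to 3, metabolism genes 1 to 5 and 1 to 9, ATF4 response genes 3 to 8 and 0 to 3, and sensing genes 0 to 1 and 1 to 4. Without mouse 1, 12 transporters were called (32.4%, where 23% of all tested genes were).

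Signs turned for uncalled genes. Slc38a4 gave 0.047 with the largest variance and Slc6a6 0.037 with the mean of probe sets. Slc7a2 gave 0.40, 1.11 and 0.076 with the mean, the largest variance and the replicate block, and Slc7a7 −0.093, −0.20 and −0.026. With single arrays left out, Slc3a2 ranged between −0.067 and 0.017, Slc6a6 between −0.15 and 0.10, Slc7a2 between −0.15 and 0.017 and Slc7a7 between −0.028 and 0.056.

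Only 3 controls set the control spread, and the deposited values could not be set against scanner signals here.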
